A study of Bos taurus with 18 samples.

Results

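The CpGs described here surround a pair of cytosines of the bovine genome whose computed methylation levels differed in opposite directions with EM in Low and in High glucose. The first, on chromosome 1 (bosTau8), is the CpG at 144115768, among CpGs that the study assigned to TFF3. The other is the CpG at 27698417 on chromosome 2, which lies between 2 CpGs that the study assigned to CERS6. These cytosines at 144115768 and 27698417 are called index CpGs. They were chosen on these data for a glucose by EM interaction, by a fit that is not named. In the fit used here their p-values had rank 2 and 3 for this interaction at ×5 among the 31500 CpGs of the table. The values of the index CpGs are therefore given without a test. Around each of them, tested CpGs were joined along the chromosome as long as neighbours were at most 10 kb apart. This gave 301 CpGs in the TFF3 region and 48 CpGs in the CERS6 region, or 349 of 31500 in all, of which 347 are not index CpGs.

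DNA methylation was measured by reduced representation bisulfite sequencing (RRBS), which reads CpG-rich restriction fragments after bisulfite has converted their unmethylated cytosines. The cells were EBTr, 1 established line of fibroblasts from bovine embryonic trachea, and all 18 libraries come from this line. Low is 1 g/L glucose and High is 4.5 g/L glucose. EM stands for epigenetic modifiers, which are folate, choline, vitamin B12 and methionine. Cells of each glucose level received EM at the Control level, at ×2.5 or at ×5, which gives Low Control, Low ×2.5, Low ×5, High Control, High ×2.5 and High ×5 with 3 libraries each. All groups, Controls included, were passaged 3 times in their medium. For methionine the sample labels give the same multiples as for the other EM, while the methods give 1 common multiple for both supplemented media. Nothing says that the 3 libraries of a group came from separate cultures, so p-values measure only the spread between these libraries, which may be technical. The table holds methylation only, so the cell type could not be checked against markers.

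In vertebrate DNA most CpGs carry a methyl group, which is copied to the new strand at replication and comes from S-adenosylmethionine. Folate, choline, vitamin B12 and methionine feed the pathway that makes S-adenosylmethionine. TFF3 encodes trefoil factor 3, a small secreted peptide that goblet cells release with mucus and that is known for its part in the repair of mucosal surfaces, also in the airways. TFF2 and TFF1, which follow TFF3 on chromosome 1 in the RefSeq annotation of assembly ARS-UCD2.0, encode trefoil peptides known mainly from the stomach. CERS6 encodes ceramide synthase 6, an enzyme of the endoplasmic reticulum that joins a fatty acyl chain to a sphingoid base to make ceramide. The coordinates of that annotation belong to another assembly than bosTau8, so whether these CpGs lie in exons, introns or upstream of a start site was not analysed here. No bosTau8 sequence was used here, and no sequence is shown.

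Levels are percentages of methylation computed from the deposited M-values (log2 ratio of methylated to unmethylated reads), and differences are differences of M-values. The index CpG assigned to TFF3 had levels of 84.8%, 85.7% and 85.0% in Low Control, 90.5%, 84.6% and 89.1% in Low ×2.5, and 94.6%, 93.0% and 93.8% in Low ×5. In High glucose its levels were 91.5%, 91.2% and 90.9% in Control, 89.2%, 83.9% and 88.2% at ×2.5, and 86.4%, 84.0% and 85.7% at ×5. The 3 Low ×5 libraries were thus the highest of all 18, and High ×5 overlapped with Low Control. Low ×2.5 and High ×2.5 each had 1 library near the Low Control level and 2 above it.

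The group means of this CpG were 85.2% ± 0.462 (SD, n = 3) in Low Control, 88.1% ± 3.06 in Low ×2.5 and 93.8% ± 0.786 in Low ×5. In High glucose they were 91.2% ± 0.290 in Control, 87.1% ± 2.84 at ×2.5 and 85.4% ± 1.22 at ×5. On the log2 scale, Low ×5 lay 1.40 above Low Control, and the difference between High ×5 and High Control was -0.83, each with a standard error of 0.227. The interaction, which is the EM difference in High glucose minus that in Low glucose, was -2.23 at ×5 (SE 0.32) and -0.98 at ×2.5. Between the Controls, High lay 0.85 above Low, and at ×5 High lay below Low (-1.38).

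The index CpG assigned to CERS6 had levels of 93.2%, 90.9% and 90.9% in Low Control, 95.5%, 96.9% and 97.8% in Low ×2.5, and 97.8%, 96.6% and 96.5% in Low ×5. In High glucose they were 97.6%, 96.2% and 96.4% in Control, 96.2%, 95.5% and 93.8% at ×2.5, and 91.4%, 91.3% and 93.0% at ×5. Here the Low ×2.5 and Low ×5 libraries overlapped, and all of them were above all Low Control libraries. The 3 High ×5 libraries were below all others except Low Control.

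The group means of the CERS6 index CpG were 91.7% ± 1.35 in Low Control, 96.7% ± 1.20 in Low ×2.5 and 97.0% ± 0.719 in Low ×5 (SD, n = 3). In High glucose the means were 96.7% ± 0.762 in Control, 95.2% ± 1.28 at ×2.5 and 91.9% ± 0.921 at ×5. Low ×5 lay 1.55 above Low Control on the log2 scale and High ×5 lay below High Control (-1.41), with a standard error of 0.306 each. Low ×2.5 lay 1.47 above Low Control and only 0.08 separated Low ×5 from Low ×2.5, whereas at the TFF3 index CpG these differences were 0.39 and 1.01. Without 1 replicate number at a time, the 0.08 of CERS6 changed sign (-0.42 to 0.47), its 1.47 lay from 1.12 to 1.91, and the TFF3 values lay from 0.20 to 0.64 and from 0.88 to 1.08. The interaction was -2.96 at ×5 (SE 0.43) and -2.07 at ×2.5.

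**Figure D1:**
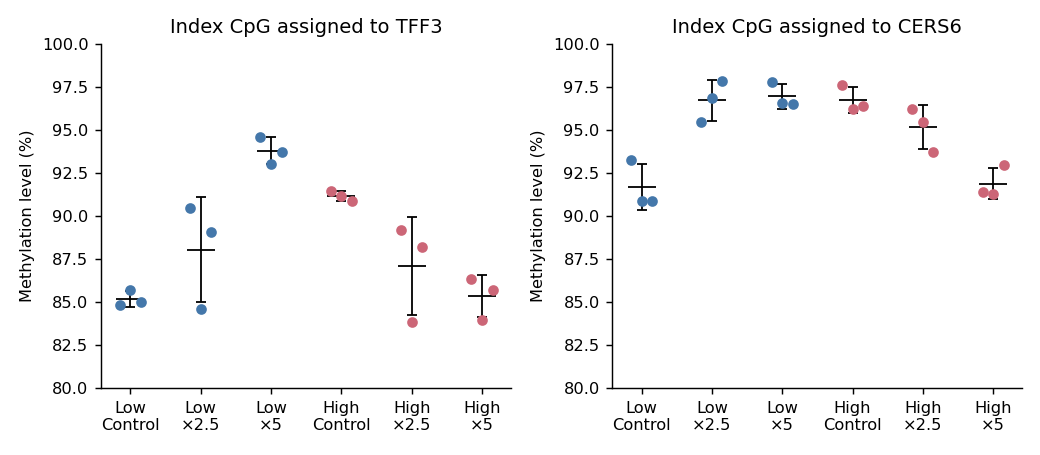
Methylation level in percent (y axis, drawn from 80 to 100) of the index CpG assigned to TFF3 (left) and to CERS6 (right) in the 6 groups (x axis), with 1 point per library, Low glucose in blue and High glucose in red, and black bars for the mean ± SD of 3 libraries. At both CpGs all Low ×5 points lie above all Low Control points and all High ×5 points lie below all High Control points.

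Complete separation of this kind, with every Low ×5 library above every Low Control library and every High ×5 library below every High Control library, was seen at 0.816% of all CpGs. It is the pattern by which the index CpGs stand out and is no finding for them. Of the other 347 CpGs, 1 had it, which lies 16 bp from the CERS6 index CpG.

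The libraries differed as a whole in a way that moves with this pattern. The median M-value over all CpGs was between 1.42 and 1.74, and the 3 lowest medians were those of Low Control 3 (1.42), High ×5 2 (1.47) and Low Control 2 (1.49). Over all CpGs the median interaction at ×5 was -0.18, but it depended on the level, from 1.09 for the 377 CpGs under 10% to -0.44 for the 5071 CpGs from 85% to 90% and -0.50 for the 2938 CpGs from 90% to 95%. The mean levels of the index CpGs were 88.4% (TFF3) and 94.9% (CERS6). With each library centred on its median M-value the interactions at ×5 were -1.98 (TFF3) and -2.71 (CERS6), while the median of all CpGs moved to 0.07. With quantile normalization, added after the data were seen, they were -1.81 and -2.45, with a median of 0.04. Without replicate 2 of each group the values were -2.27 and -3.05, and without 1 replicate number at a time they lay from -2.27 to -2.14 and from -3.20 to -2.63. The part of these differences between libraries in the CpGs described here was not tested further.

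The table gives no depths and the offset added to the read numbers is not stated, so no counting error was computed. The levels move in steps that repeat within a library. Among the 16 CpGs within 100 bp of the CERS6 index CpG, index included, Low Control 3 held 8 distinct levels (equal within 0.001 percentage points), and 6 of the CpGs, the index CpG among them, had the same level of 90.9%. High ×5 1 held 10 distinct levels, with 4 CpGs at the index level, while Low Control 1, Low ×2.5 2 and Low ×5 3 each held 16. Around the TFF3 index CpG, the 7 CpGs took 3 to 7 distinct levels per library. None of the 16 CpGs was above the CERS6 index level in Low Control 2 (90.9%), Low Control 3 (90.9%) or High ×5 2 (91.3%). The same was so in most other libraries. In Low Control 2 none of the 7 CpGs was above the TFF3 index level (85.7%). How far few reads, through the offset, held such levels down was not tested. Whether the groups at the index CpGs would still be separated without it was therefore not tested either.

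The CpGs within 100 bp of an index CpG can be read in the same fragments, so they are not independent of it. Around the TFF3 index CpG there were 6 others, at -53, -24, -7, 34, 41 and 54 bp. Their interactions at ×5 were 0.06, -1.25, 0.09, -1.26, -1.16 and -1.71 on the log2 scale, with standard errors of 0.466 to 0.803, so 4 of 6 were below 0. None of the 6 was called at an unadjusted p under 0.01 in the limma fit, in which the smallest p among them was 0.0271 (adjusted p = 0.459), at 54 bp. The CpG at -7 bp, the closest of all, had mean levels of 86.9% ± 2.76 in Low Control and 86.0% ± 2.12 in Low ×5, and of 85.0% ± 6.09 in High Control and 85.3% ± 3.31 in High ×5 (SD, n = 3).

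At 54 bp from the TFF3 index CpG, levels were 93.9%, 78.6% and 80.0% in Low Control, 89.2%, 88.4% and 87.5% in Low ×5, 85.1%, 94.1% and 95.5% in High Control, and 81.8%, 84.0% and 81.6% in High ×5. High ×5 was below High Control in every library, but Low Control 1 was above all Low ×5 libraries. The step between the Controls was the clearest difference of the 41 bp neighbour, with 80.8% ± 3.65 in Low Control and 88.9% ± 6.26 in High Control, a difference of 1.10 (SE 0.446, p of 0.0248, adjusted p = 0.567 by limma). It did not pass the threshold of 0.01 and the groups overlapped.

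Around the CERS6 index CpG, 15 other CpGs were tested within 100 bp, and 10 of them had an interaction at ×5 below 0. The values ranged from -1.86 to 0.73 with a median of -0.25, beside -0.18 over all CpGs. The 3 lowest were those at -20 bp (-1.86, SE 0.751, p of 0.0248), 16 bp (-1.60, SE 0.481, p of 0.00432) and 20 bp (-1.19, SE 0.445, p of 0.0168) in the limma fit, of which the 16 bp neighbour was called (adjusted p = 0.299). At -17, -10 and 13 bp, CpGs that lie between or beside these gave -0.25, -0.30 and 0.44.

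The 16 bp neighbour (position 27698433) had levels of 91.9%, 84.8% and 90.9% in Low Control, 95.5%, 94.8% and 96.8% in Low ×2.5, and 91.9%, 93.2% and 93.0% in Low ×5. In High glucose it had 96.4%, 92.5% and 95.2% in Control, 95.0%, 90.9% and 93.8% at ×2.5, and 91.4%, 91.3% and 87.3% at ×5. Low ×5 was above Low Control by a narrow margin, since Low Control 1 and Low ×5 1 both rounded to 91.9%, and the highest levels were in Low ×2.5. It was called in 5 of the 11 comparisons, which are Low ×2.5 vs. Low Control (1.39, SE 0.34, p of 0.00084, adjusted p = 0.436), High ×5 vs. High Control (-1.03, p of 0.00808), High Control vs. Low Control (1.12, p of 0.00452) and the interactions at ×5 and at ×2.5 (-1.79, p of 0.00183), all by limma.

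Other CpGs of this stretch moved differently. At -20 bp the level rose from 86.6% ± 7.91 in Low Control to 96.0% ± 1.49 in Low ×5 (1.77, SE 0.531, limma p of 0.00422, adjusted p = 0.371), while High Control (92.5% ± 1.74) and High ×5 (91.4% ± 4.41) overlapped. At 20 bp, High Control (81.7% ± 2.55) was above Low Control (67.7% ± 6.87) by 1.09 (SE 0.314, limma p of 0.00325, adjusted p = 0.494), with no overlap. At -48 bp the change was in the other direction, from 65.6% ± 3.54 in Low Control to 51.2% ± 6.85 in Low ×2.5 (-0.86, SE 0.264, limma p of 0.00477, adjusted p = 0.465).

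**Figure D2:**
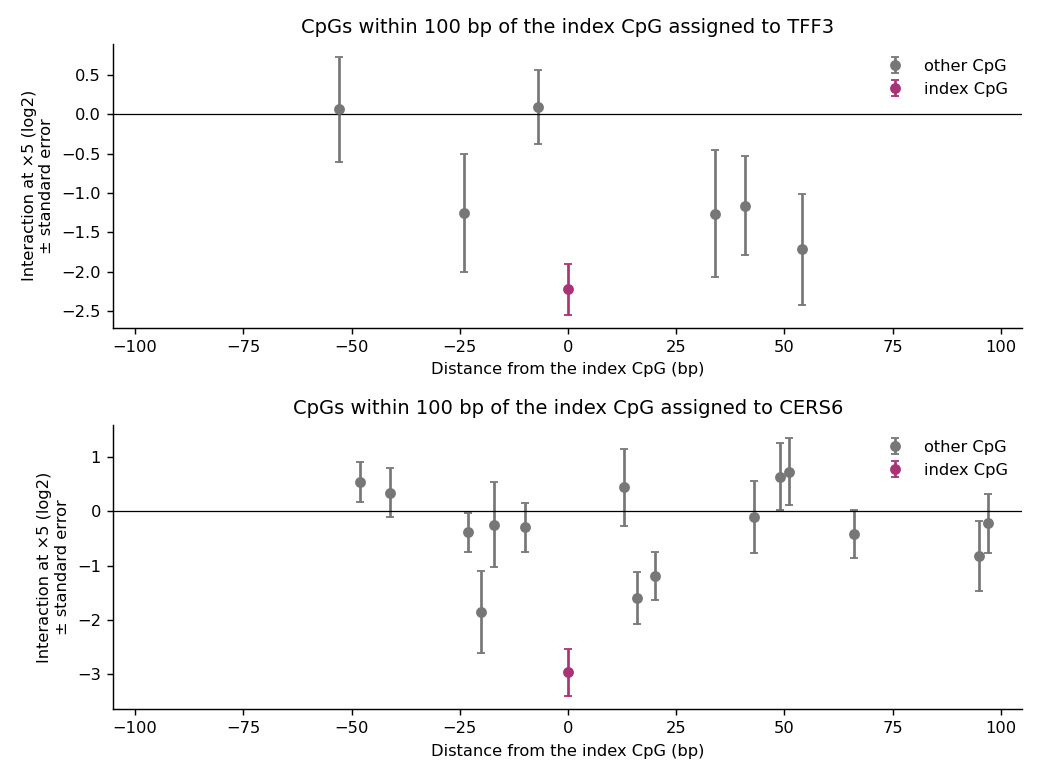
Glucose by EM interaction at ×5 on the log2 scale (y axis, point ± standard error from limma) against the distance from the index CpG in bp (x axis), for the CpGs within 100 bp of the index CpG assigned to TFF3 (top) and to CERS6 (bottom). The index CpGs, which were chosen for an interaction, lie at -2.23 and -2.96, and the other CpGs between -1.71 and 0.09 (TFF3) and between -1.86 and 0.73 (CERS6).

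The cluster means show the same stretches as 1 value per library. Clusters were at least 3 CpGs less than 100 bp apart, and the regions held 29 (TFF3) and 3 (CERS6) of the 2663 clusters of the table. The 7 CpGs from 144115715 to 144115822, index CpG included, had a mean M-value that corresponds to 81.7% ± 3.17 in Low Control, 87.3% ± 0.312 in Low ×5, 87.9% ± 3.51 in High Control and 84.4% ± 1.27 in High ×5. Without the index CpG, the interaction of the other 6 at ×5 was -0.87 (SE 0.336, limma p of 0.0192, adjusted p = 0.193), which misses the threshold. Their levels in Low Control and High Control were 81.0% ± 3.85 and 87.1% ± 4.26, a difference of 0.71 (SE 0.238, limma p of 0.00856, adjusted p = 0.317). The groups overlapped, with 85.3% in Low Control 1 against 84.9%, 84.5% and 92.1% in High Control. Without replicate 3 the difference was 0.30 (limma p of 0.214), without replicate 2 it was 0.75 (limma p of 0.0352), without replicate 1 it was 1.09 (limma p of 0.00296), and with centred libraries 0.60 (limma p of 0.0172). Among all clusters, 2.89% were called between the Controls and 6.53% for the interaction at ×5. The 6 CpGs can share reads with the index CpG, which was chosen for an interaction. Their p-values, those between the Controls included, are therefore not independent of that choice.

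The cluster around the CERS6 index CpG holds 23 CpGs from 27698369 to 27698624. Without the index CpG, the other 22 had an interaction at ×5 of -0.38 (SE 0.254, limma p of 0.158) and at ×2.5 of -0.57 (SE 0.254, limma p of 0.0385), neither under 0.01. Their level was 79.4% ± 3.20 in Low Control, 83.5% ± 2.43 in Low ×2.5 and 81.6% ± 1.20 in Low ×5, and 81.5% ± 2.03, 79.5% ± 0.957 and 79.4% ± 3.82 in the High groups in the same order. The groups at ×5 overlapped with their Controls in both glucose levels. As at TFF3, the p-values of these 22 CpGs are not independent of the choice of the index CpG.

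A further 2 clusters of the TFF3 region were called. The 7 CpGs from 144113808 to 144113925, before the index CpG, rose by 0.64 between Low Control and Low ×5 (SE 0.216, limma p of 0.009, adjusted p = 0.235), from 75.9% ± 4.01 to 83.1% ± 2.59. The 5 CpGs from 144087531 to 144087637 were at 66.7% ± 0.601 in Low Control against 73.3% ± 1.93 in Low ×5 (0.46, SE 0.144, limma p of 0.00542) and 73.5% ± 2.42 in High Control (0.47, SE 0.144, limma p of 0.00458). In both of the latter comparisons all Low Control libraries were below the others. Of all clusters, 4.09% were called between Low ×5 and Low Control. With libraries centred on their median, none of these 3 calls held, with differences of 0.48, 0.30 and 0.36 and p-values from 0.0154 to 0.0365. Without replicate 2 none held either, without replicate 1 only that of the 7 CpGs did, and without replicate 3 only that between the Controls.

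None of the 347 CpGs had an adjusted p under 0.05 in any comparison of the limma fit. From 14 to 34 of them had an unadjusted p under 0.05, where 754 and 2378 of all 31500 CpGs had one in the same 2 comparisons. In Low ×5 vs. Low Control 5 of 347 CpGs (1.44%) were called at an unadjusted p under 0.01, against 2.40% of all CpGs. In Low ×2.5 vs. Low Control they were 8 (2.31%) against 2.0%, and in Low ×5 vs. Low ×2.5 none against 0.371%. In the latter, 14 of the 347 and 754 of all 31500 CpGs had an unadjusted p under 0.05. Higher levels with EM in Low glucose made up 4 of the 5 and 7 of the 8 calls, where CpGs called in that direction were 1.78% and 1.53% of the table.

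In High glucose, 4 CpGs were called in High ×5 vs. High Control (1.37% of the table), 3 in High ×2.5 vs. High Control (1.02%) and 7 in High ×5 vs. High ×2.5 (1.47%). All 7 calls against High Control were lower with EM, and CpGs called in that direction were 1.08% (×5) and 0.676% (×2.5) of the table, which is most of its calls too. Between glucose levels, 6 CpGs were called at the Control level of EM (1.92% of the table), 3 at ×2.5 (1.01%) and 4 at ×5 (1.61%). The comparisons share groups, so these counts are not independent of each other.

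For the interaction, 9 of 347 CpGs (2.59%) were called at ×5 against 2.79% of the table, and 13 (3.75%) at ×2.5 against 1.85%. Negative values made up 8 and 12 of them, and CpGs called in that direction were 2.23% and 1.42% of all CpGs. The medians of the 300 other CpGs of the TFF3 region were -0.25 at ×5 and -0.17 at ×2.5, and those of the 47 other CpGs of the CERS6 region were -0.10 and -0.35, beside -0.18 and -0.12 over the table. With quantile normalization the counts were 5 and 6, and the shares of the table given here are not those of that fit.

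**Figure D3:**
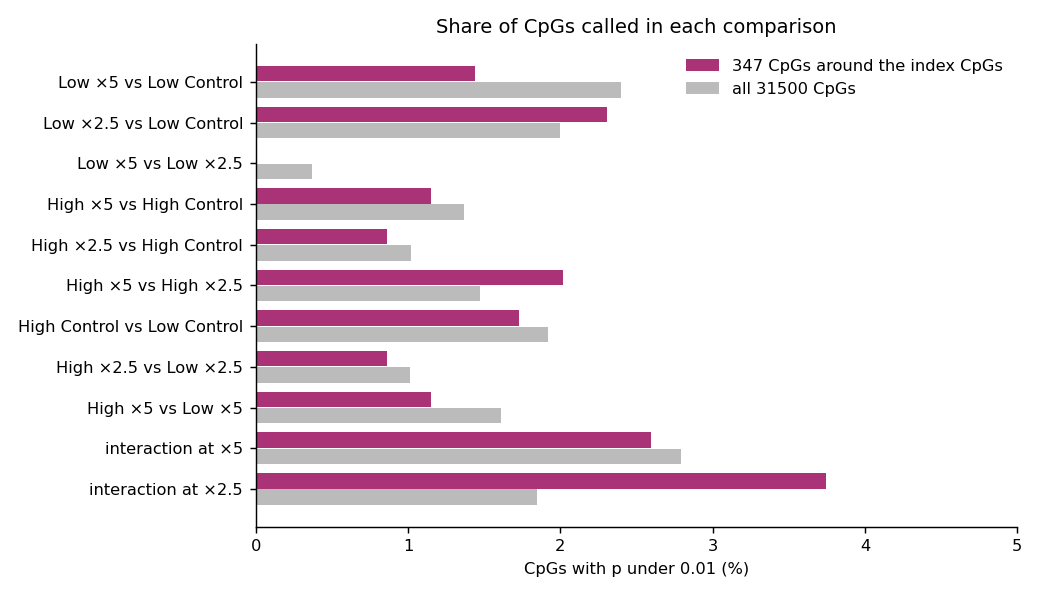
Percentage of CpGs with an unadjusted limma p under 0.01 (x axis) in each comparison (y axis), for the 347 CpGs around the index CpGs (dark bars) and for all 31500 CpGs (grey bars). The dark bars lie between 0 and 3.75% and the grey bars between 0.371% and 2.79%, and the widest gap is at the interaction at ×2.5.

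In all, 33 of the 347 CpGs (9.51%) were called in at least 1 of the 11 comparisons, where 9.73% of the table were. In the TFF3 region the calls were spread over the whole length. The strongest by p in the interaction at ×5 was at 144080374, which lies 35394 bp before the index CpG, with levels of 89.1%, 74.1% and 77.8% in Low Control, 93.8%, 83.6% and 90.5% in Low ×5, 84.9%, 90.5% and 86.2% in High Control, and 76.5%, 80.0% and 71.2% in High ×5. Its interaction was -2.18 (SE 0.587, limma p of 0.00186, adjusted p = 0.266). High ×5 was below High Control without overlap, while Low Control and Low ×5 overlapped.

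The CpG at 144082150 was called in both interactions, with -1.43 (SE 0.435, limma p of 0.00452) at ×5 and -1.60 (limma p of 0.00203, adjusted p = 0.461) at ×2.5. Its levels were 80.2%, 79.6% and 84.0% in Low Control, 87.1%, 90.3% and 89.7% in Low ×2.5, and 88.9%, 91.0% and 93.8% in High Control. High Control and Low ×2.5 were both above Low Control without overlap, by 1.30 (limma p of 0.000649) and 0.91 (limma p of 0.00907). High ×2.5 (86.7% ± 3.23) and High ×5 (84.9% ± 5.13) were more spread.

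The opposite sign was seen at 144089050, the least methylated CpG of both regions. Its levels were 9.09%, 9.52% and 13.3% in Low Control and 4.40%, 5.17% and 5.41% in Low ×5, a fall of 1.17 on the log2 scale (SE 0.361, limma p of 0.00517). With 6.36% ± 2.36 in High Control and 10.0% ± 4.46 in High ×5, its interaction at ×5 was 1.85 (SE 0.51, limma p of 0.00226, adjusted p = 0.266). The sign is that of the 377 CpGs under 10%, given above, and with quantile normalization the value was 1.18.

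A further 4 CpGs of the TFF3 region had the smallest p of a comparison. In High glucose the level at 144103284 fell from 91.6% ± 1.42 in Control to 84.7% ± 1.21 at ×2.5 (-1.0, limma p of 0.00107) and 84.0% ± 2.27 at ×5 (-1.07, SE 0.252, limma p of 0.000618). At 144076195, near the start of the region, it rose from 78.3% ± 6.49 in Low Control to 91.3% ± 3.83 in Low ×2.5 and 92.1% ± 3.08 in Low ×5 (1.73, SE 0.498, limma p of 0.00315). At 144078962 High ×5 (77.5% ± 7.11) was below Low ×5 (89.1% ± 2.60), with a difference of -1.23 (SE 0.303, limma p of 0.000871). At 144123185 High ×2.5 (77.4% ± 4.12) was below Low ×2.5 (86.6% ± 1.62), with a difference of -0.91 (SE 0.271, limma p of 0.00414). Adjusted p-values of these 4 CpGs in these comparisons were 0.356 or more. Close to 2 of them, some other CpGs differed in the same direction and some did not. Those named next were picked out after their values were seen. The CpG at 144103234 was called in the interaction at ×2.5 with the same sign as 144103284. It was also called as higher in Low ×2.5 vs. Low Control, but it was not called in High ×5 vs. High Control (-0.47). The CpG at 144076202, next to 144076195, differed by 1.22 between Low ×5 and Low Control without being called.

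In the CERS6 region, the remaining CpGs with the smallest p of a comparison lie more than 100 bp from the index CpG. The CpG at 27696284 lies 2133 bp before the index CpG and had levels of 43.8%, 35.1% and 28.9% in Low Control, 48.5%, 51.0% and 45.5% in Low ×2.5 and 49.1%, 41.9% and 44.8% in Low ×5. With 46.8% ± 1.39 in High Control and 37.0% ± 6.45 in High ×5, its interaction was -1.17 at ×5 (SE 0.351, limma p of 0.00428, adjusted p = 0.299) and -1.19 at ×2.5 (limma p of 0.0038). It is the same direction as at the index CpG at an intermediate level of methylation. Most CpGs near it went the other way. Of the 17 CpGs more than 1000 bp from the index CpG, 6 had an interaction at ×5 below 0, and their median was 0.31. At 27698586, 169 bp after the index CpG, High ×2.5 (84.4% ± 3.34) was below Low ×2.5 (94.6% ± 2.25), with a difference of -1.76 (SE 0.507, limma p of 0.0031, adjusted p = 0.945).

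By distance, the CpGs more than 100 bp away fell into too few ranges per region to tell whether there was a gradient towards the index CpG. In the TFF3 region the median interaction at ×5 was -1.21 for the 6 CpGs within 100 bp, -0.29 for the 91 CpGs from 1001 to 10000 bp and -0.23 for the 203 CpGs beyond that, and no CpG was tested between 101 and 1000 bp. In the CERS6 region the medians were -0.25 for 15 CpGs within 100 bp, -0.27 for 15 CpGs from 101 to 1000 bp and 0.31 for the 17 CpGs beyond. These are descriptions of the same 18 libraries, in which neighbouring CpGs share reads.

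The tested CpGs of the regions stood in separate blocks. The TFF3 region runs from 144076096 to 144131559 (55464 bp) in 25 blocks separated by more than 300 bp, and it has the rank 15 by number of CpGs among the 612 joined regions of the table. Its index CpG lies in a block of 7 CpGs, from -53 to 54 bp, and the next CpGs are 1704 bp before and 5658 bp after the index CpG. The CERS6 region runs from 27696181 to 27699350 (3170 bp) in 3 blocks, with 17, 23 and 8 CpGs, and the index CpG lies in the second.

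The limit of 10 kb for joining matters at 1 place. The longest gap within the TFF3 region was 9731 bp, from 144093503 (mean level 75.5%) to 144103234 (86.3%), and a slightly shorter limit would leave 163 CpGs on the side of the index CpG and take off 138. Outside, the nearest tested CpGs were 4.87 Mb before (51.7%) and 1.24 Mb after (90.5%), beside outermost members at 81.2% and 18.0%. For the CERS6 region they were 7.75 Mb before (50.5%) and 26.4 Mb after (87.8%), beside outermost members at 90.3% and 87.9%.

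Both regions were mostly methylated. The mean level over 18 libraries was 75.1% in the TFF3 region (median 81.2%, from 8.17% to 94.8%) and 71.7% in the CERS6 region (median 76.9%, from 20.3% to 94.9%), beside 68.9% (median 75.5%) over the table. In the TFF3 region 161 of 301 CpGs were at 80% or more and 33 were under 50%, as 32 between 10% and 50% and 1 under 10%. In the CERS6 region 20 of 48 were at 80% or more and 8 were under 50%. The CERS6 index CpG was the highest CpG of its region, followed by its neighbours at 16 bp (92.6%) and -20 bp (91.7%).

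The most methylated CpGs of the TFF3 region were spread over it, at 144092237 (94.8%), 144131520 (94.7%) and 144121465 (94.6%), and the least methylated were at 144089050 (8.17%), 144129612 (13.6%) and 144089102 (16.7%). High and low levels stood in the same blocks. The block from 144089050 to 144089141 had 4 CpGs, 2 of them under 50%, with levels from 8.17% to 89.0%, and the block from 144121426 to 144121991 had 20, with levels from 18.0% to 94.6% and 6 of them under 50%. The block of the index CpG held no CpG under 50% and ranged from 71.7% to 88.4%. In the CERS6 region the lowest were at 27699289 (20.3%), 27696446 (31.9%) and, 41 bp before the index CpG, 27698376 (36.1%).

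**Figure D4:**
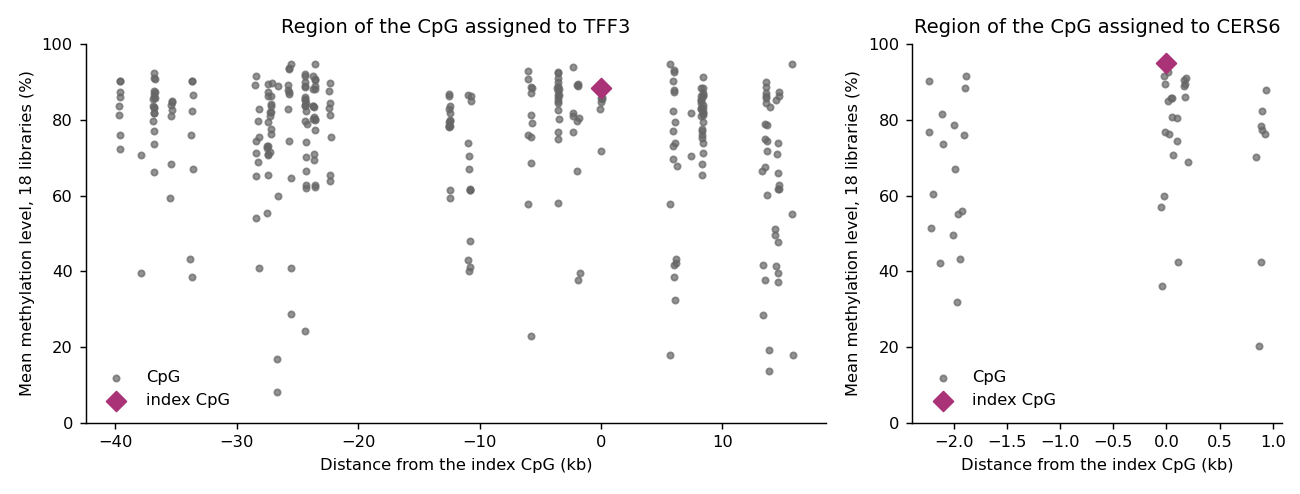
Mean methylation level over 18 libraries in percent (y axis) of each CpG against its distance from the index CpG in kb (x axis), for the TFF3 region (left) and the CERS6 region (right), with the index CpGs as diamonds. Points stand in vertical blocks with empty stretches between them, most lie above 50%, and CpGs under 50% occur in the same blocks as CpGs above 80%.

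As whole regions, the groups differed little. The mean level of the 301 CpGs of the TFF3 region was 74.1% ± 1.45 in Low Control, 75.8% ± 0.342 in Low ×2.5, 75.9% ± 0.557 in Low ×5, 75.4% ± 0.258 in High Control, 74.8% ± 0.888 in High ×2.5 and 74.4% ± 0.746 in High ×5 (SD, n = 3). All 31500 CpGs had the same lowest group, with 68.2% ± 1.25 in Low Control, and the same highest group, with 69.5% ± 0.487 in Low ×5. In every library the TFF3 region was above the mean of all CpGs, by 5.19 to 6.75 percentage points. The CERS6 region was above it by 0.904 to 5.07 points, and its group means ran from 71.1% ± 2.38 in High ×5 to 73.1% ± 1.13 in Low ×2.5.

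CpGs varied between libraries of a group about as much as in the rest of the table. The median SD within groups was 0.44 on the log2 scale in the TFF3 region, 0.39 in the CERS6 region and 0.43 over all CpGs, and the index CpGs had 0.24 (TFF3) and 0.38 (CERS6). The largest SD over all 18 libraries was at 144104915 (11.5 percentage points, mean level 39.9%), 144104960 (11.0 points) and 144080346 (10.2 points) in the TFF3 region. At 144104915, High ×5 libraries had 64.3%, 18.8% and 40.0%, and Low Control libraries 52.9%, 47.1% and 20.0%, so the spread was within groups. In the CERS6 region it was at 27698624 (11.0 points), where Low Control 3 had 36.4% and High ×5 2 had 45.8% while the other 16 libraries lay from 62.9% to 79.2%, then at 27698512 (8.33 points) and 27698529 (7.14 points).

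Some tested cytosines lie at adjacent positions and may be the cytosines of both strands of 1 CpG, which was not checked against the sequence. The TFF3 region has 53 such pairs and the CERS6 region none, and neither index CpG has one. Averaged over the 18 libraries, levels of the pairs were alike. The median absolute value of the mean difference was 1.97 percentage points, and 1.79 over the 5637 pairs of the table. Single libraries differed more. In the pair that gave this median, which starts at 144124031, the difference ran from -16.3 to 12.3 points (SD 8.57). In 5 pairs (9.43%) the difference had 1 direction in all 18 libraries, which was so for 4.98% of all pairs, and 4 pairs (7.55%) differed by more than 10 points on average, against 5.41% of all pairs.

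The largest difference was between 144091432, with a mean of 24.1% (from 17.7% to 37.8%), and 144091433, with a mean of 79.7% (from 68.4% to 87.9%). The second position was higher by 55.6 points ± 8.98 (SD over 18 libraries). Next was 144112237 (58.0%, from 49.0% to 71.3%) with 144112238 (88.9%, from 81.4% to 96.0%), a difference of 30.9 points ± 7.94. The other 3 pairs that differed in 1 direction in all libraries were those starting at 144091482 (-15.9 points for the second minus the first position), 144078966 (-15.8 points) and 144078973 (9.34 points). They were present in all 18 libraries, whatever the treatment.

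Of the 62 calls of the 347 CpGs over the 11 comparisons, 16 were at a CpG with an adjacent partner. In 8 of the 16 the partner differed in the same direction, and in none was it called, while over the table the partner differed in the same direction in 63.5% and was called in 1.77% of 1580 such calls. At 144103284 the difference between High ×5 and High Control was -1.07 and that of its partner -0.41 (limma p of 0.48). At 144112237, which had the smallest p of the region in High ×5 vs. High ×2.5 (-0.80, SE 0.219, limma p of 0.00214), the partner went the other way (0.91, limma p of 0.0532). At 144124009, which rose from 82.8% ± 3.60 in Low Control to 92.0% ± 0.361 in Low ×2.5 (1.24, SE 0.333, limma p of 0.00188), the partner differed by 0.02. For 144078962 in High ×5 vs. Low ×5 the partner value was -0.05.

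**Figure D5:**
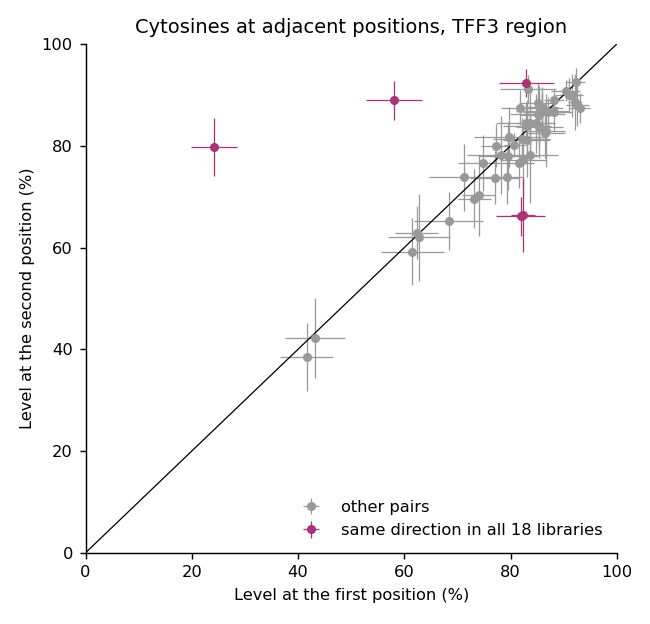
Mean methylation level in percent at the first (x axis) and second (y axis) cytosine of the 53 pairs at adjacent positions in the TFF3 region, with bars for the SD over 18 libraries and the line of equal levels. Most pairs lie near the line, and the 5 coloured pairs, which differed in the same direction in all 18 libraries, include those at 24.1% against 79.7% and 58.0% against 88.9%.

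Genes were assigned through the supplementary tables of the study, which name a gene for CpGs that the authors called, so the ends of each gene's stretch were chosen on these data. Tested CpGs between listed CpGs of 1 gene were given to it. This put 246 CpGs of the TFF3 region at TFF3 and 10 at TFF2, with 45 unassigned, and 28 CpGs of the CERS6 region at CERS6, with 20 unassigned. The study listed 2 CpGs of the CERS6 region, and the CERS6 index CpG lies between them without being listed. None of the tested CpGs was assigned to TFF1. Of the 31 genes listed for ceramide metabolism, 2 had assigned CpGs, which were CERS6 and ACER2, an alkaline ceramidase of the Golgi that splits ceramide.

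At TFF3 without its index CpG, 5 of 245 CpGs were called in the interaction at ×5, 4 of them negative, and 9 at ×2.5, of which 8 were negative, where 2.79% and 1.85% of the table were called and 2.23% and 1.42% were called with a negative value. At CERS6 without its index CpG, 1 of 27 was called in each, both negative. Of the 10 CpGs at TFF2, 1 was called in each of 5 comparisons, in which 1.02% to 2.79% of the table were called, and none in the other 6. That CpG, at 144130333 and 14565 bp after the index CpG of TFF3, was picked out after its values were seen, as 1 of the pair of CpGs with the most calls. Its levels were 57.9%, 55.2% and 70.0% in Low Control, 68.1%, 65.7% and 68.3% in Low ×5, 76.9%, 73.6% and 80.0% in High Control, and 65.8%, 53.3% and 56.8% in High ×5. High ×5 was below High Control without overlap, with a difference of -1.23 (SE 0.328, limma p of 0.00176, adjusted p = 0.53), and the interaction at ×5 was -1.61 (SE 0.464, limma p of 0.00309, adjusted p = 0.274). Of the 47 CpGs at ACER2, 1 was called in High Control vs. Low Control, with a lower level in High (1.92% of the table were called), and none in the other comparisons.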

How the data were processed

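Per the labels and methods, the authors trimmed RRBS reads with Cutadapt and aligned them to bosTau8 with Bismark 0.22.3, which also called methylation. The deposited log2 values (M-values) cover 31500 CpGs in 18 libraries and come without counts or depths. The offset added to the read numbers is not given in the sources used here. An M-value from few reads lies nearer 0 and is noisier. Levels in percent were computed from the M-values with the offset still in them. Differences were tested two-sided with limma 3.58.1 (R 4.3.3) on all 18 libraries and all CpGs, with 1 mean per group (4.11 prior degrees of freedom). Calls were made at p under 0.01 before adjustment, and adjusted p-values are Benjamini-Hochberg values over all CpGs, or all clusters. On simulated data with 200 changed CpGs, 39.0% of interactions of size 1 at ×5 and 83.0% of size 2 were called, and 1.11% and 1.05% of unchanged CpGs.

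Groups came from the labels. Named CpGs were the index CpGs, those within 100 bp, per comparison and region the smallest p under 0.01, and the 3 highest, lowest and most variable of each region. The members, gene lists and rules were chosen with earlier results of these data known. Alternatives were a fit of the compared groups alone, a replicate block, leaving out each replicate number, median centring, levels as fractions, CpGs from 10% to 90%, and an adjusted p under 0.05. Quantile normalization and clusters without the index CpGs, also centred and without each replicate number, were added after the data were seen. Python 3.11.15 (pandas 2.3.3, numpy 2.4.6) gave the other values, and matplotlib 3.10.9 the figures.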

Additional observations from a re-analysis of the deposited data

Results flagged for a closer look

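A difference between the EM effects in Low and High glucose, either tested as the interaction or seen as opposite shifts in all libraries, drew attention to 6 CpGs. The index CpGs of TFF3 (-2.23 at ×5 on the log2 scale) and CERS6 (-2.96) differed in opposite directions in all libraries of Low ×5 and High ×5 against their Controls. They were chosen on these data for an interaction, and the difference was not tested for them here. Among the others, the CpG with the smallest p of each region in the interaction at ×5 was 144080374 in the TFF3 region (-2.18, limma p of 0.00186, adjusted p = 0.266) and 27696284 in the CERS6 region (-1.17, limma p of 0.00428, adjusted p = 0.299). At ×2.5 these were 144082150 (-1.60, limma p of 0.00203) and 27698433 (-1.79, limma p of 0.00183), both with an adjusted p of 0.461.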

How the results depend on the processing

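The counts of called CpGs are small and moved with most settings, and the causes were not tested unless the setting itself uses fewer CpGs or libraries. The shares of all CpGs printed above are those of the reported fit. They cannot be set beside the counts under other settings. With an adjusted p under 0.05 the counts were 0 in all comparisons. With libraries centred on their median they were 5 for High ×2.5 vs. High Control, 1 for Low ×5 vs. Low ×2.5 and 4 for the interaction at ×5. The cluster calls were then 3 in place of 5. Both numbers include calls of the cluster that holds the TFF3 index CpG, which was chosen on these data. With quantile normalization they were 5 (interaction at ×5) and 6 (at ×2.5). On the fraction scale the count was 10 for High Control vs. Low Control. Among CpGs with a mean level from 10% to 90% it was 3 for Low ×5 vs. Low Control. With only the libraries of the groups compared, the counts were 3 for Low ×5 vs. Low Control, 3 for Low ×5 vs. Low ×2.5, 2 for High ×5 vs. High ×2.5 and 5 for High ×2.5 vs. Low ×2.5. Without 1 replicate number at a time, the counts lay from 1 to 7 (Low ×5 vs. Low Control), 3 to 7 (Low ×2.5 vs. Low Control), 1 to 2 (Low ×5 vs. Low ×2.5), 4 to 7 (High ×5 vs. High Control), 3 to 9 (High ×2.5 vs. High Control), 4 to 8 (High ×5 vs. High ×2.5), 5 to 12 (High Control vs. Low Control) and 5 to 11 (interaction at ×2.5), and the cluster calls from 0, without replicate 2, to 10, without replicate 1. The 4 cluster calls without the index CpGs became 0 after centring and lay from 0, without replicate 2, to 8, without replicate 1. Of the 62 calls, 17, 21 and 15 were also made without replicates 1, 2 and 3, 41 after centring and 38 after quantile normalization, and none changed sign in any of these fits. Same-numbered libraries of different groups were correlated after the group mean of each CpG was taken off. These correlations lay between -0.106 and 0.115, and those of differently numbered libraries between -0.0967 and 0.0974. They show no pairing by replicate number but cannot exclude one. With a replicate block, 55 of the 62 calls held and the count for Low ×5 vs. Low ×2.5 was 2. Of 187 values of the index CpGs under these settings, 14 moved by more than the SD within groups. The CERS6 value for Low ×5 vs. Low ×2.5 changed sign without 1 replicate number (-0.42 to 0.47). The unknown depth limits every value, most of all near 0% and 100%.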
